A study of Mus musculus with 12 samples.

Results

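The hippocampi of 4 animals with high and 5 animals with low choroid plexus signal were compared, 9 of the 11 animals profiled, and the 2 animals with signal in between were left out of the comparison and are shown beside it. The high class held mutants 1, 2 and 4 and control 4, and the low class held controls 1, 3 and 5 and mutants 5 and 6. The classes were chosen from the signals themselves, chiefly of Ttr, Kl and Folr1, so that every difference between them is a description and none was tested. All animals were C57Bl/6N mice that had received tamoxifen, and hippocampal RNA was taken 4 weeks later. The mutants carried 2 floxed alleles of TIF-IA, the RNA polymerase I transcription factor encoded by Rrn3, and the CaMKCreERT2 transgene, which places the inducible recombinase under a promoter of forebrain neurons. The controls are labelled wildtype, and the methods name them floxed littermates without the recombinase, which were given tamoxifen as well. RNA came from hippocampus taken out of brain slices, and each animal was 1 sample, with mutant 6 measured on 2 arrays that were averaged. Animals of both sexes were used, and the Xist signal was low in control 4 and mutant 3 (4.76 and 4.25 log2) and at least 9.38 in the other animals, so that 1 animal of the high class, none of the low class and 1 of the left out animals stood apart in it.

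The choroid plexus is a folded sheet of epithelium over a vascular core that hangs into the brain ventricles, makes cerebrospinal fluid and secretes carrier proteins and growth factors into it. Ependymal cells line the ventricle walls and carry motile cilia, and the epithelium of the choroid plexus shares part of their ciliary genes. The plexus of the lateral ventricle lies along the fimbria and the hippocampus, and how much of it stays with a dissected hippocampus can vary. In bulk RNA of a tissue piece, fewer cells of a type and less RNA per cell cannot be told apart.

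Signals below are log2 values of the normalized brightness of a probe, and 1 probe, the brightest, stands for a gene. A difference of 1 between class means is 2-fold. The 12 arrays had similar signal, with median deposited intensities of 83.1 to 108 and 19193 to 21889 probes detected, meaning a detection p-value under 0.01. The 2 arrays of mutant 6 correlated at 0.99 over 20966 probes. The targeted gene Rrn3 was between 7.71 and 7.99 in the 6 mutants and between 8.25 and 8.55 in the 5 controls, without overlap. The difference was -0.55 ± 0.07 (standard error), with an unadjusted p of 6.7e-06 by limma and an adjusted p of 0.152 by limma over all probes. The paper also reports a decrease of this mRNA in the mutants, on the arrays and by qPCR. Whether the probe lies in the deleted part of the gene is not given in the sources used here.

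Ttr encodes transthyretin, the thyroid hormone and retinol carrier that is the main secreted protein of choroid plexus epithelium. Its signal was 14.70, 14.75, 14.57 and 14.73 in mutant 1, mutant 2, control 4 and mutant 4 of the high class. It was 12.20, 11.61, 9.30, 9.77 and 9.39 in control 1, control 3, mutant 5, control 5 and mutant 6 of the low class. The high class was tight (SD 0.08) and the low class wide (SD 1.35), and the means lay 4.23 apart, or 18.8-fold. On the linear scale as deposited, the probe read 18783 to 31682 in the high class and 795 to 4495 on the 6 arrays of the low class, and the brightest probe of any array read 36929. Mutant 2 was the lowest of the high class in deposited intensity (18783) but the highest after normalization (14.75). The tightness of the high class thus holds for the normalized values only. The low class was itself divided for Ttr along the animal numbers: its 2 animals numbered in the 200s had 11.6 and 12.2, and its 3 animals numbered in the 300s had 9.30 to 9.77. What the number series stand for is not given in the sources used here, and its part in the difference was not tested.

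Kl encodes klotho, a coreceptor for fibroblast growth factors that is abundant in kidney and choroid plexus. It read 10.33, 9.44, 10.28 and 10.23 in the high class, in the same order of animals, and 7.85, 6.21, 7.04, 7.27 and 6.40 in the low class. Mutant 2 was the lowest of the high class and control 1 the highest of the low class. The difference was 3.12, or 8.69-fold. Folr1 encodes the folate receptor alpha, with which the plexus moves folate into cerebrospinal fluid. Its signals were 8.5, 7.77, 7.81 and 8.07 against 4.80, 4.41, 4.72, 4.28 and 4.42, and only 1 of the 5 low animals was detected. The difference was 3.51, or 11.4-fold. The second Folr1 probe was detected in no low animal and was at least 9.21-fold higher, where a fold written as at least is the high mean against the lowest detected signal of the low arrays. The second Kl probe was detected in none of the 11 animals. All 3 genes therefore separated the classes without overlap, which is how the classes were made.

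**Figure D1:**
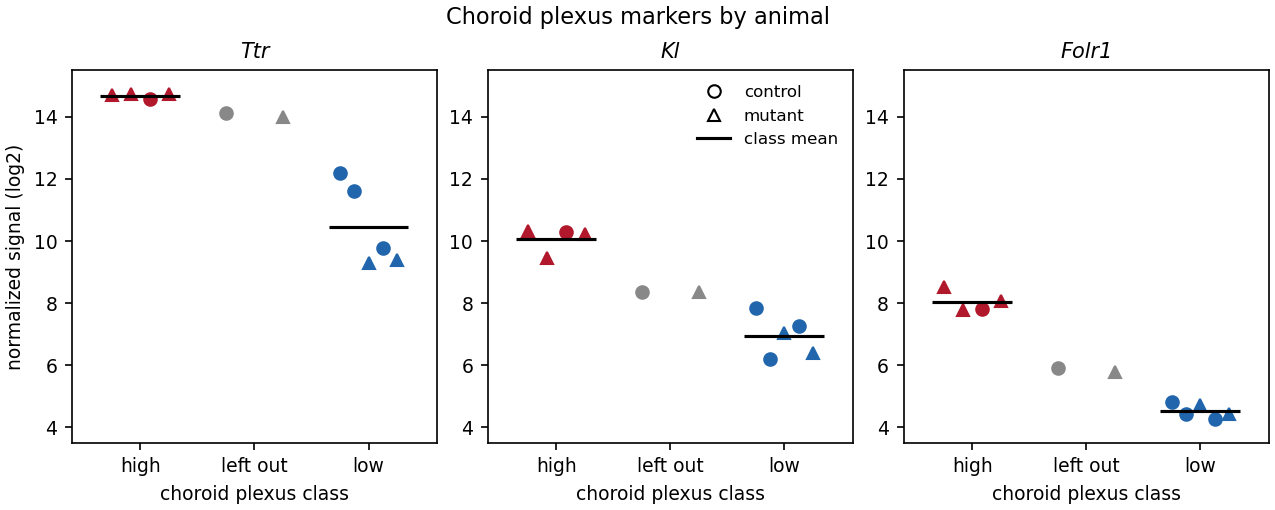
Normalized signal (log2, vertical axis) of Ttr, Kl and Folr1 in each animal, by choroid plexus class; circles are controls, triangles mutants and bars the class means. The 4 high animals lie above the 5 low animals for each gene, and the 2 left out animals lie in between, close to the high class for Ttr (14.11 and 13.999) and nearer to the low class for Folr1 (5.93 and 5.78).

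The animals left out lay between the classes for all 3 genes. Control 2 and mutant 3 had Ttr signals of 14.11 and 13.999, just under the lowest high animal at 14.57 and well above the highest low animal at 12.20. Their Kl signals were 8.35 and 8.35, against 9.44 in the lowest high animal and 7.85 in the highest low animal. For Folr1 they had 5.93 and 5.78, against 7.77 and 4.80. Expressed as the position between the class means on the log2 scale, with the low mean at 0% and the high mean at 100%, they stood at 86.4% and 83.8% for Ttr, at 44.7% and 44.8% for Kl and at 39.8% and 35.7% for Folr1.

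Over all genes, 82 of 19031 (0.431%) were at least 2-fold higher in the high class with no overlap between the classes, and 8 (0.042%) were at least 2-fold lower. At probe level the counts were 118 of 45135 (0.261%) and 14 (0.031%). Because the contrast itself chose the animals, these shares are given as the background of the counts that follow and nothing is read from them. Without a limit on size, 379 genes (1.99%) were higher and 293 (1.54%) lower without overlap, and the median difference over all genes was -0.01. Of the 82 higher genes, 36 were members of the choroid plexus lists, 4 of the list of ependyma and motile cilia, 1 of another list, and 41 of no list. Of the 82, 11 were detected in no animal of the low class. The other probes of these genes mostly moved in the same direction: 28 of the 82 genes had 38 further detected probes, of which 36 had the same sign and 24 separated the classes. The exceptions were a further probe of Rdh5 (-0.18) and one of Cacna1d (-0.04), whose remaining detected probe gave 0.11. Probes of the same sign often differed in size. Further probes of Trpm3 gave 0.06 to 2.25. Those of Cgnl1 (0.10), Col8a2 (0.68) and Msx1 (0.63) overlapped between the classes.

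The 15 largest differences were nearly all genes of choroid plexus epithelium. They were Wfdc2, Ecrg4, Clic6, Kcne2, Ttr, Aqp1, Otx2, Folr1, Slc13a4, Cldn2, Defb11, Trpm3, Kl, F5 and Rbm47, from 4.57 down to 3.0, and 13 of the 15 were in the choroid plexus lists. Kcne2, Defb11, Trpm3 and F5 were detected in no low animal, so that their place in this order depends on the background. Defb11, a beta-defensin, and Rbm47, an RNA-binding protein, were in no list. Wfdc2, a secreted protein with whey acidic protein domains, had the largest difference. It read 9.19, 9.29, 9.80 and 9.74 in the high class against 4.96, 5.18, 4.77, 4.80 and 4.95 in the low class. This was a 23.8-fold difference, and both classes were tight.

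Secreted proteins and carriers came first among the choroid plexus lists, with 15 of 16 listed genes measured, 14 of them higher in the high class, 11 without overlap and 10 of these at least 2-fold. The median difference was 2.29, against -0.01 over all genes. Ecrg4, a secreted peptide precursor of the plexus, read 11.19, 10.10, 10.27 and 10.88 in the high class against 6.53, 6.27, 5.56, 7.03 and 5.24 in the low class, a difference of 4.48. F5, coagulation factor V, read 6.76 to 7.67 in the high class and was detected in none of the low animals, which makes it at least 7.35-fold higher. The insulin-like growth factor Igf2 read 12.57, 12.54, 12.58 and 12.78 in the high class against 10.23, 10.73, 10.38, 10.29 and 9.98 in the low class, a difference of 2.29, and its binding protein Igfbp2 differed by 2.08. Col8a1 and Col8a2, short-chain collagens, differed by 2.56 and 2.99, and Lbp, a lipopolysaccharide-binding protein, by 2.44. Sostdc1, an inhibitor of BMP and Wnt signals, differed by 1.72, and Cp, ceruloplasmin, by 0.63. Vegfa (0.21), Bmp7 (0.49) and Col9a3 (-0.22) overlapped between the classes, and Spint2 was detected in no animal.

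Transporters, channels and junction proteins were represented by 22 of 24 listed genes, of which 17 were higher, 13 without overlap and all 13 at least 2-fold, with a median of 1.18. Clic6, of the chloride intracellular channel family, read 11.35, 10.89, 11.45 and 11.59 against 6.99, 8.24, 7.22, 5.40 and 6.83, a difference of 4.38. Kcne2, a potassium channel subunit of the apical membrane of the plexus, read 9.0, 8.16, 8.34 and 8.59 and was detected in no low animal, at least 17-fold higher. Aqp1, the water channel of the apical membrane, differed by 3.86, with 8.42 to 9.24 in the high class and 4.55 to 5.36 in the low class. Kcne2 was thus at background in every low animal, and Aqp1 was detected in 4 of 5. Slc13a4, a sulfate transporter, differed by 3.38, Cldn2, the claudin of leaky tight junctions, by 3.35, and the cation channel Trpm3 by at least 8.41-fold on its brightest probe. Its further detected probes gave smaller differences, from 0.06 to 2.25, some with overlap. Smaller differences without overlap were found for the anion exchanger Slc4a2 (1.83), the zinc transporter Slc39a4 (1.71), the cation channel Trpv4 (1.54), the carbonic anhydrase Car14 (1.39), the copper transporter Slc31a1 (1.20), the sodium-potassium-chloride cotransporter Slc12a2 (1.16) and Abca4 (1.15). A gene of this list that neurons also express at high level showed little difference: the sodium pump subunit Atp1b1 was 13.94 to 13.999 in the high class and 13.81 to 14.02 in the low class. Slc15a2 (-0.53) and Slc5a5 (-0.59) were lower on average in the high class, with overlap.

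Receptors, enzymes and cytoskeletal genes had 15 of 16 listed genes measured, 14 higher, 12 without overlap and 11 at least 2-fold, with a median of 1.71. Beside Kl and Folr1 these were Cox8b, a subunit of cytochrome c oxidase (2.76), Calml4 (2.53), the angiotensin-converting enzyme Ace (2.43), the retinol dehydrogenase Rdh5 (2.31), the simple epithelial keratins Krt18 (1.71) and Krt8 (1.51), Ltc4s (1.19) and Cab39l (1.15), as well as Steap1, which was detected in no low animal and was at least 3.74-fold higher. Ace read 8.43, 7.65, 8.22 and 8.62 in the high class against 5.81, 5.61, 6.02, 5.76 and 5.82 in the low class. The serotonin receptor Htr2c, which plexus epithelium and neurons both use, separated the classes by 0.46 only, at signals close to background (4.66 to 4.98 against 4.2 to 4.47). Mfrp (-0.25) and Stra6 (0.34) overlapped, and Tmem72 was detected in no animal.

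All 3 transcription factors of the lists were higher without overlap. Otx2, the homeodomain factor that choroid plexus formation and upkeep need, read 8.78, 8.20, 8.54 and 8.55 in the high class against 5.44, 5.01, 4.51, 4.38 and 4.19 in the low class, where 2 of 5 animals were detected. Its difference was 3.81. Msx1 differed by 1.54, with 7.40 to 8.27 against 5.79 to 6.90, and Lmx1a, a roof plate factor, was detected in no low animal and was at least 1.56-fold higher. In total, 55 of 59 genes of the 4 choroid plexus lists were measured, 48 were higher on average in the high class, 39 without overlap, and none was lower without overlap (0). Over all genes, 9079 of 19031 were higher on average, 379 (1.99%) higher without overlap and 293 (1.54%) lower without overlap. The 39 include Ttr, Kl and Folr1, from which the classes were chiefly chosen. The median over the 55 genes was 1.54.

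**Figure D2:**
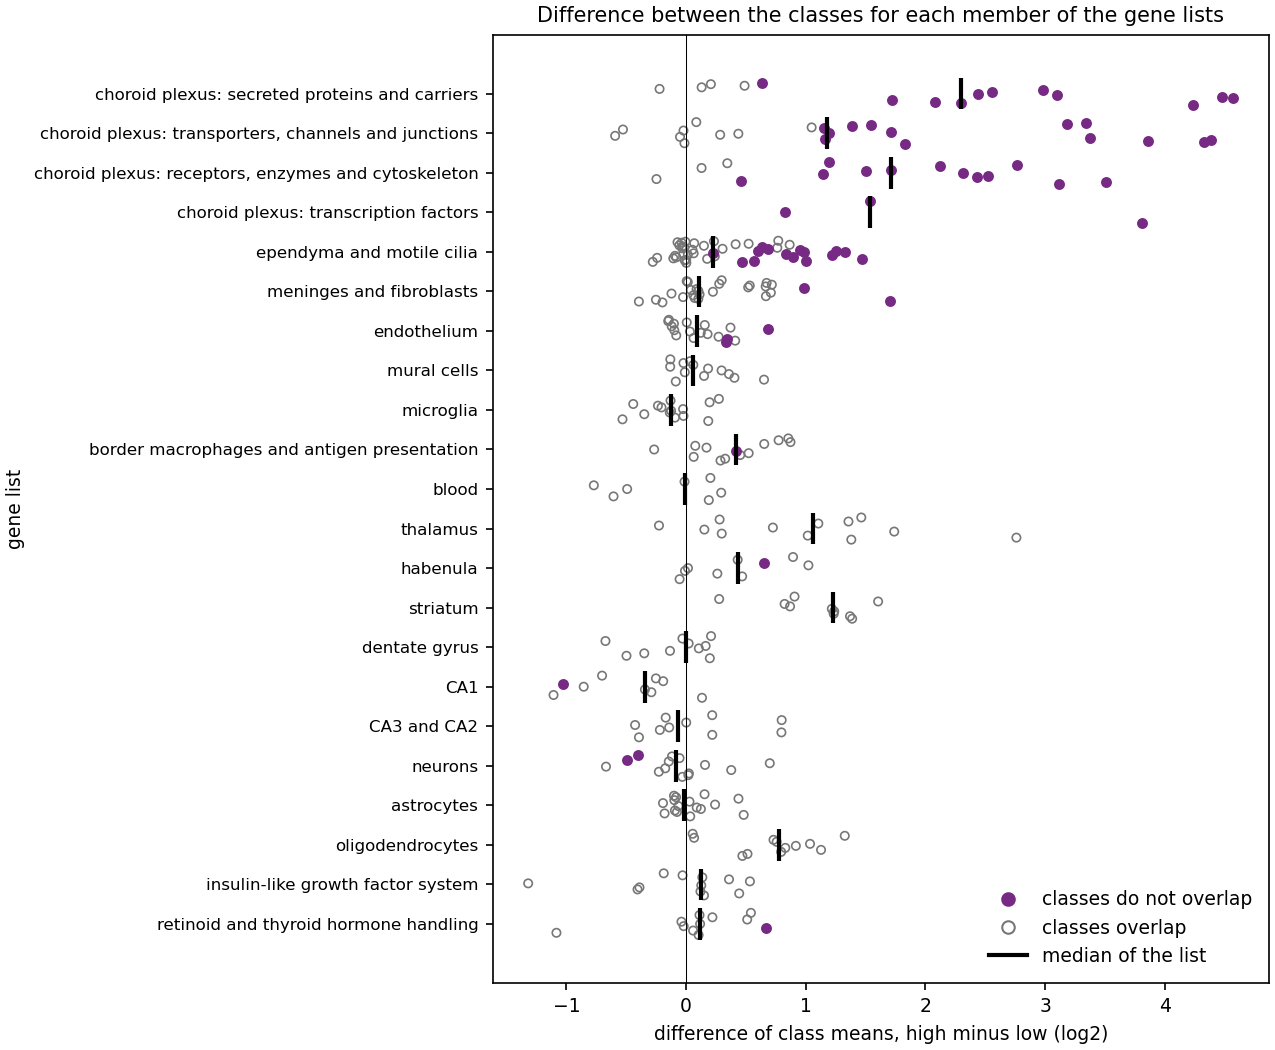
Difference of the class means (high minus low, log2, horizontal axis) for each measured member of the 22 gene lists; filled points are genes whose classes do not overlap, open points genes whose classes overlap, and black bars list medians. The choroid plexus lists reach from -0.59 to 4.57 with medians of 1.18 to 2.29, the list of ependyma and motile cilia reaches 1.47, and the lists for thalamus, striatum and oligodendrocytes have medians of 1.06, 1.23 and 0.78 with only open points.

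Within the high class the animals did not stand equally. Over the 36 choroid plexus genes called 2-fold higher, mutant 1 was the highest of the class for 19 and mutant 4 for 10, whereas mutant 2 was the lowest for 25. The array of mutant 2 also had the lowest median intensity (83.1) and the fewest detected probes (19193) of all arrays, and the part of this in the order was not tested. Within the low class no animal took such a place: control 1 was the highest for 12 and mutant 5 for 9, and control 3 was the lowest for 10 and control 5 for 9. The low animals thus stood in different order for different genes, and the order of Ttr, in which the animals numbered in the 200s came first, was not that of Kl, where control 3 was lowest at 6.21.

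Only part of the ependyma and motile cilia genes followed the same split, with smaller differences. Of 52 listed genes 45 were measured, 31 were higher on average in the high class and 14 lower. Of the 45, 15 were higher without overlap, 4 of these at least 2-fold, and 0 were lower without overlap. Over all genes, 1.99% were higher without overlap, 0.431% at least 2-fold higher without overlap, and 1.54% lower without overlap. The median was 0.23 over the 45 genes and 0.60 over the 29 detected in at least 4 animals. The 4 genes were Dynlrb2, a dynein light chain, Cfap126, a cilia and flagella associated protein, Mlf1 and Tekt1, a tektin of ciliary microtubules. Dynlrb2 read 8.15, 8.0, 8.19 and 8.24 in the high class against 7.32, 6.80, 6.51, 6.28 and 6.46 in the low class, a difference of 1.47. Cfap126 differed by 1.33, Mlf1 by 1.25 and Tekt1 by 1.22. Rsph1, a radial spoke protein, differed by 1.00 (9.39 to 9.91 against 8.32 to 8.77), Cfap52 by 0.98, Pifo by 0.95 and Dnali1 by 0.89, while Spag16 was detected in no low animal and was at least 1.55-fold higher. These genes separated the classes, yet the low class kept clear signals of most of them.

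Other ciliary genes did not separate the classes. Foxj1, the master regulator of motile cilia, had means 0.00 apart, at 4.60 to 5.59 in the high class and 4.57 to 5.32 in the low class. The lower of these signals were close to background, where a difference can be missed. Rsph9 (-0.01), Fam183b (-0.03), Nme5 (0.07) and Ccdc39 (0.15) overlapped as well, and the regulator Rfx3 was lower on average (-0.28), with overlap. Its relative Rfx2 was higher without overlap by 0.47. Of the 45 genes, 9 were detected in no animal, among them Spag17, Dnah5 and Tmem212.

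The 2 left out animals stood differently for choroid plexus and for ciliary genes. Among the 39 choroid plexus genes higher without overlap, control 2 was above every low animal for 26 and mutant 3 for 23, both animals for 21 and neither for 11. Among the 15 ciliary genes higher without overlap, control 2 was above every low animal for 2 and mutant 3 for 1, both for 0 and neither for 12. Their median positions between the class means were 39.5% and 28.7% for the choroid plexus genes and -24.0% and 0.6% for the ciliary genes. For example, Dynlrb2 read 6.32 and 6.59 in control 2 and mutant 3, and Rsph1 7.90 and 8.67, at or under the level of the low class. Wfdc2 read 7.31 and 7.08 in the same animals, about midway between the classes. As these animals were set aside for their choroid plexus signal, their place between the classes for choroid plexus genes follows from the choice, and the position for ciliary genes is a description of 2 animals.

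**Figure D3:**
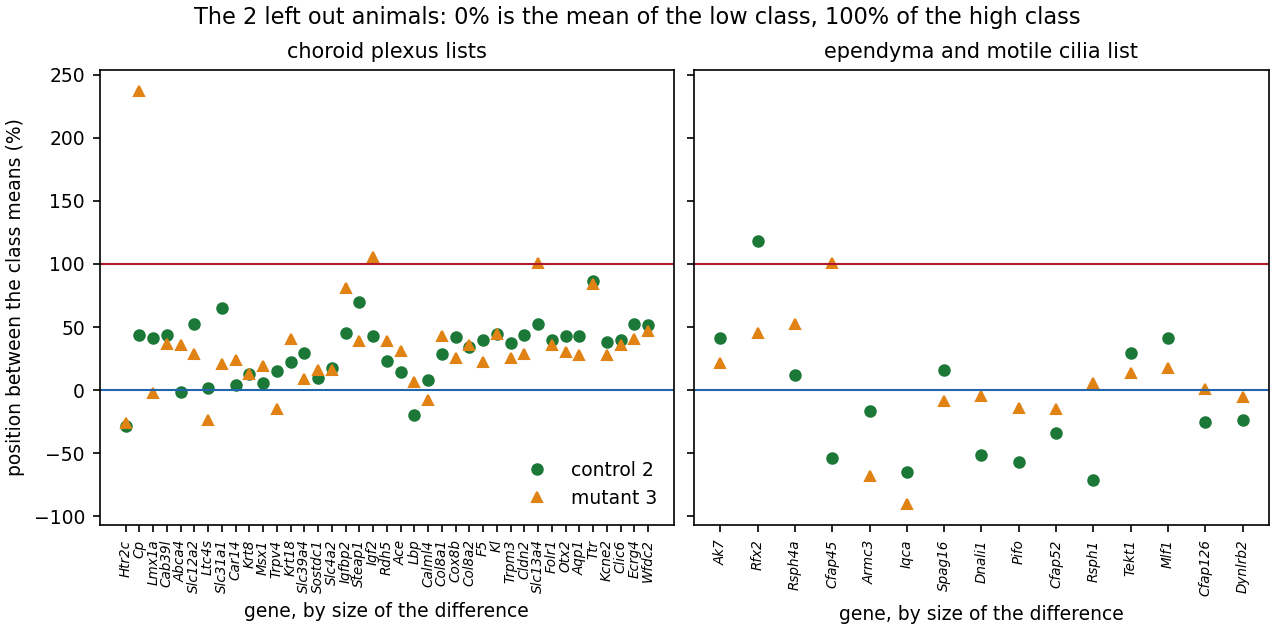
Position of control 2 (circles) and mutant 3 (triangles) between the class means on the log2 scale (vertical axis, %), for the 39 choroid plexus genes (left) and the 15 ciliary genes (right) that were higher without overlap, ordered by the size of the difference; the lines mark the low mean (0%) and the high mean (100%). Most choroid plexus genes lie between the lines (medians 39.5% and 28.7%), while most ciliary genes lie near or under the low line (medians -24.0% and 0.6%).

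For a few genes mutant 3 reached or passed the level of the high class, while for others, such as Trpv4 (-15.1%) and Calml4 (-8.0%), it lay under the mean of the low class. Igf2 was 12.75 in mutant 3, within the high class, and 11.32 in control 2, and Slc13a4 was 10.08 against 8.43. Cp was 7.64 in mutant 3, above every high animal (6.54 to 7.04). Ogn, the proteoglycan osteoglycin and a marker of meningeal fibroblasts, was 8.89 in mutant 3 and 6.91 in control 2, with 6.88 to 7.80 in the high class and 4.78 to 6.26 in the low class. The list of meninges and fibroblasts had its highest mean in the same animal, 0.90 above the mean of all animals, whereas the other 10 animals lay between -0.44 and 0.18. Mutant 3 was also the highest animal in the lists of border macrophages and antigen presentation (0.65), blood (0.61) and endothelium (0.21), so that its place was not particular to meningeal genes. The part of meningeal tissue in these values of mutant 3 was not tested.

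RFX factors regulate ciliary genes and OTX2 regulates genes of the choroid plexus, and the promoters of all measured members of these lists, whether or not they separated the classes, were searched for the letters these factors bind. Promoter windows of 300 bases, 250 before and 50 after a transcription start, were taken from RefSeq on build GRCm38.p6, and 39 of the 45 ciliary genes and 46 of the 55 choroid plexus genes had at least 1. The RFX half-site searched was GTTGCC, the core of OTX2 sites TAATCC and the forkhead site TGTTTAC, on both strands, and none of the 3 is contained in another. The half-site occurred in 20 of 44 promoters of ciliary genes (45.5%), in 10 of 66 of choroid plexus genes (15.2%) and in 16 of 93 of the 82 higher genes (17.2%), against 4111 of all 32851 promoters (12.5%). The OTX2 core occurred in 5 of 44 (11.4%), 6 of 66 (9.09%) and 10 of 93 (10.8%), against 2320 of all (7.06%), and the forkhead site in 3 of 44 (6.82%), 0 of 66 and 1 of 93 (1.08%), against 1199 of all (3.65%). The windows of Cfap126, Kl, Wfdc2 and Fam171a1 held none of the 3 motifs. Below are promoters of 2 ciliary genes with the half-site and of 1 choroid plexus gene with the OTX2 core, picked after their values were seen, with the matching letters in capitals on either strand. Tekt1 and Ace have 1 further window each, without a match. The Dynlrb2 window is chr8:116504765-116505064 on the plus strand, the Tekt1 window chr11:72361833-72362132 on the minus strand and the Ace window chr11:105967698-105967997 on the plus strand.
Dynlrb2: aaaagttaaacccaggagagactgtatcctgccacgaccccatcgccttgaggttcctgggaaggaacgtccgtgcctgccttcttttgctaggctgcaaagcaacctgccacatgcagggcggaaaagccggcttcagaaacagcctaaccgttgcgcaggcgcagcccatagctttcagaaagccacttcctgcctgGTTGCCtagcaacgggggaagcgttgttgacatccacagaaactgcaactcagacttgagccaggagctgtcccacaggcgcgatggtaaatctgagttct
Tekt1: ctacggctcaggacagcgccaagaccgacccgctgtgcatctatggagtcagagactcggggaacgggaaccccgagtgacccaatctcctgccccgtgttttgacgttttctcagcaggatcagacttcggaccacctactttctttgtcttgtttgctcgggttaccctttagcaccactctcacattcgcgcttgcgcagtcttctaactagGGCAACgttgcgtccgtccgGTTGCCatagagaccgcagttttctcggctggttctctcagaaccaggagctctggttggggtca
Ace: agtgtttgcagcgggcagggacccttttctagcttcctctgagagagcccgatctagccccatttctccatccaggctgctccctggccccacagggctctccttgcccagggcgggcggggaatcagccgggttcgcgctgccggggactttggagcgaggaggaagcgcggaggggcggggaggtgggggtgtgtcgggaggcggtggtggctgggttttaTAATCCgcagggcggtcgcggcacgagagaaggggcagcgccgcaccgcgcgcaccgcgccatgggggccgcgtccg
A match is a description of the letters and not a site of binding, and no test was made of these shares.

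The 41 higher genes in no list had various roles. Slc16a8, a lactate transporter of plexus and retinal pigment epithelium, read 6.65 to 7.15 in the high class and was detected in no low animal, at least 5.53-fold higher. Sulf1, a heparan sulfate endosulfatase, read 9.02, 9.0, 8.92 and 8.82 against 6.03, 6.91, 6.43, 5.98 and 7.28, a difference of 2.41. Ooep (2.45), the methyltransferase Inmt (1.99), Large2 (1.82), the cell cycle inhibitor Cdkn1c (1.73), the tight junction protein Cgnl1 (1.70) and the procollagen enhancers Pcolce (1.67) and Pcolce2 (1.5) followed. Cfap65, which is ciliary by name, differed by 1.19 and Mycbpap by 1.44. The endocytic adaptor Dab2 differed by 1.15, Lgals3, a galectin of macrophages and epithelia, by 1.05, and the histidine decarboxylase Hdc by 1.05. These genes were picked from the call after their values were seen.

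The 8 genes at least 2-fold lower in the high class were Fam171a1, Ntn5, Chid1, Cort, Tmem267, 9130024F11Rik, Mtfp1 and Mpped1. Fam171a1, a membrane protein, read 4.92, 4.2, 5.11 and 4.77 in the high class against 8.21, 8.23, 8.34, 8.52 and 8.65 in the low class, with 7.04 and 6.57 in control 2 and mutant 3. This was 12.5-fold lower. In the high class the probe was detected in 3 of 4 animals, at signals close to background, so that the size of the fold depends on the background. A second detected Fam171a1 probe gave -2.67, and another was detected in no animal. From low to left out to high animals its signal therefore ran opposite to that of Ttr, Kl and Folr1. Within the high class it did not mirror the choroid plexus genes: mutant 2 was lowest in it and also lowest for 25 of the 36 called choroid plexus genes.

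Chid1, a protein with a chitinase domain, fell by 1.78 between the classes on its brightest probe (5.91 to 6.57 against 7.91 to 8.49) and by 0.57 on a second probe. In the left out animals it read 7.45 and 7.60. Ntn5, a netrin, read 6.88, 8.16, 6.26 and 6.42 against 8.52, 8.76, 9.84, 9.23 and 9.04, with 9.21 and 10.06 in the left out animals, at or above the level of the low class. Cort, the neuropeptide cortistatin, read 6.58, 6.68, 5.65 and 5.11 against 8.08, 6.69, 8.39, 7.58 and 8.11. Control 3, at 6.69, and mutant 2, at 6.68, lay next to each other, so that Cort only just separated the classes. A second Cort probe gave -2.03. Mpped1, a gene of the CA1 list, read 10.25 to 11.22 against 11.63 to 11.9995, a difference of -1.03. Rasal1 (-0.99) and Fkbp1b (-0.90) stood just under 2-fold.

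**Figure D4:**
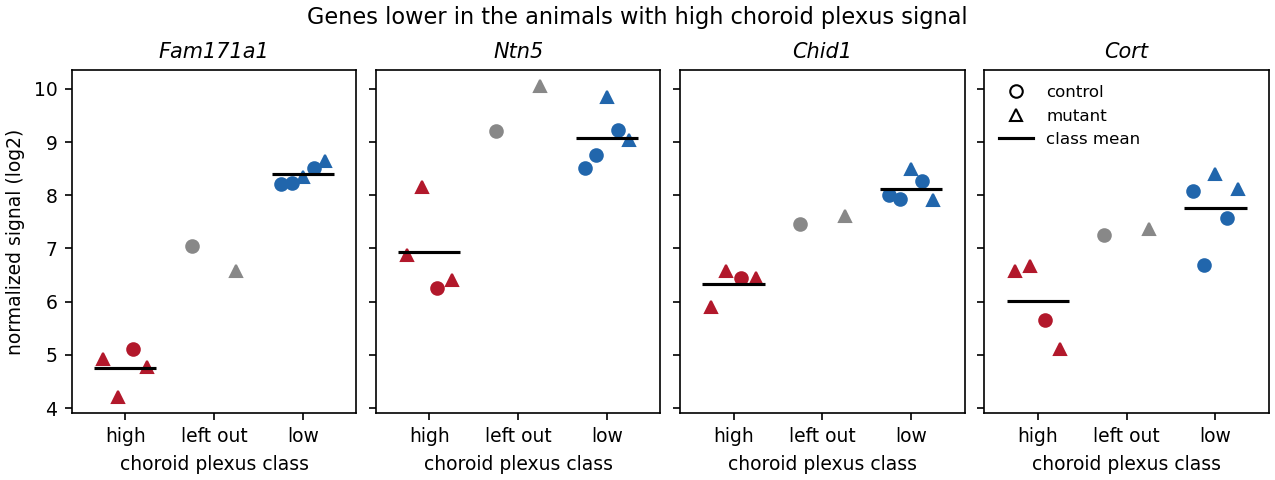
Normalized signal (log2, vertical axis) of the 4 genes with the largest differences in the opposite direction, by choroid plexus class; circles are controls, triangles mutants and bars the class means. For Fam171a1 the 4 high animals lie between 4.2 and 5.11, the left out animals at 7.04 and 6.57 and the 5 low animals between 8.21 and 8.65.

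Markers of other tissue around the hippocampus moved with the split in some animals. The thalamus list had a median difference of 1.06 and the striatum list of 1.23, but 0 of 12 and 0 of 10 genes separated the classes. The summed thalamus level, as the mean of values centred on all animals, was -0.66 in mutant 1, 0.92 in mutant 2, 1.42 in control 4 and 0.83 in mutant 4. In the low class it was 0.61 in control 3 and -0.79 to -0.54 in the other 4 animals. Prkcd, a kinase abundant in thalamic relay neurons, read 8.12 in mutant 1, 10.98 in mutant 2, 12.11 in control 4 and 10.89 in mutant 4, against 6.83 to 8.76 in the low class. For the striatum list mutant 1 stood at -1.21 and control 3 at 1.86. Mutant 1, which was highest of its class for most choroid plexus genes, was thus among the lowest animals in thalamic and striatal markers, and control 3, of the low class, was above the mean in both. The part of neighbouring tissue in the class differences was not tested.

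Oligodendrocyte genes were higher on average in the high class for all 12 measured genes, with a median of 0.78, and 0 separated the classes. The myelin protein gene Mobp read 10.72, 11.46, 11.55 and 11.87 against 10.20, 11.03, 9.82, 9.82 and 10.50. Habenula genes had a median of 0.43, with 1 of 9 separating the classes. Control 4 was highest in them at 1.49, and the other high animals lay between -0.43 and 0.47.

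Among hippocampal cell lists, the CA1 list had a median of -0.34, or -0.70 over the 7 genes detected in at least 4 animals, with 8 of 9 genes lower on average and 1 without overlap. The medians of the other hippocampal lists lay closer to 0: the list of CA3 and CA2 had -0.07 and the dentate gyrus list -0.005. Fibcd1, a CA1 marker, read 11.69, 10.996, 10.72 and 9.52 in the high class against 11.99, 12.07, 12.23, 12.30 and 10.60 in the low class, with overlap through mutant 6. The neuron list had a median of -0.09, with 2 of 14 lower without overlap, and its summed level was -0.09 to 0.01 in the high class and -0.03 to 0.08 in the low class. Astrocytes had a median of -0.02 and 0 of 16 genes without overlap. The ranges of the summed neuron level thus overlapped.

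Vessels, immune cells and blood were compared because the plexus has a stroma. Endothelial genes had a median of 0.09, with 3 of 18 higher without overlap, among them Emcn, endomucin, at 8.19 to 8.54 against 7.31 to 8.09 (0.69). Over all genes, 1.99% were higher without overlap. The summed endothelial level separated the classes by a narrow gap, at 0.03 to 0.06 in the high class against -0.21 to -0.02 in the low class. Mural cell genes had a median of 0.06 with 0 of 13 separated, and microglia -0.13 with 0 of 14. The list of border macrophages and antigen presentation had a median of 0.42, with 12 of 13 genes higher on average and 1 without overlap. Its leading genes H2-Ab1 (0.87) and Cd74 (0.85), both of the class II presentation pathway, overlapped. Meningeal genes had a median of 0.11, and Ogn (1.70) and the prostaglandin D synthase Ptgds (0.99) were the 2 of 26 that separated the classes. Blood genes had a median of -0.01, with 0 of 7 separated.

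**Figure D5:**
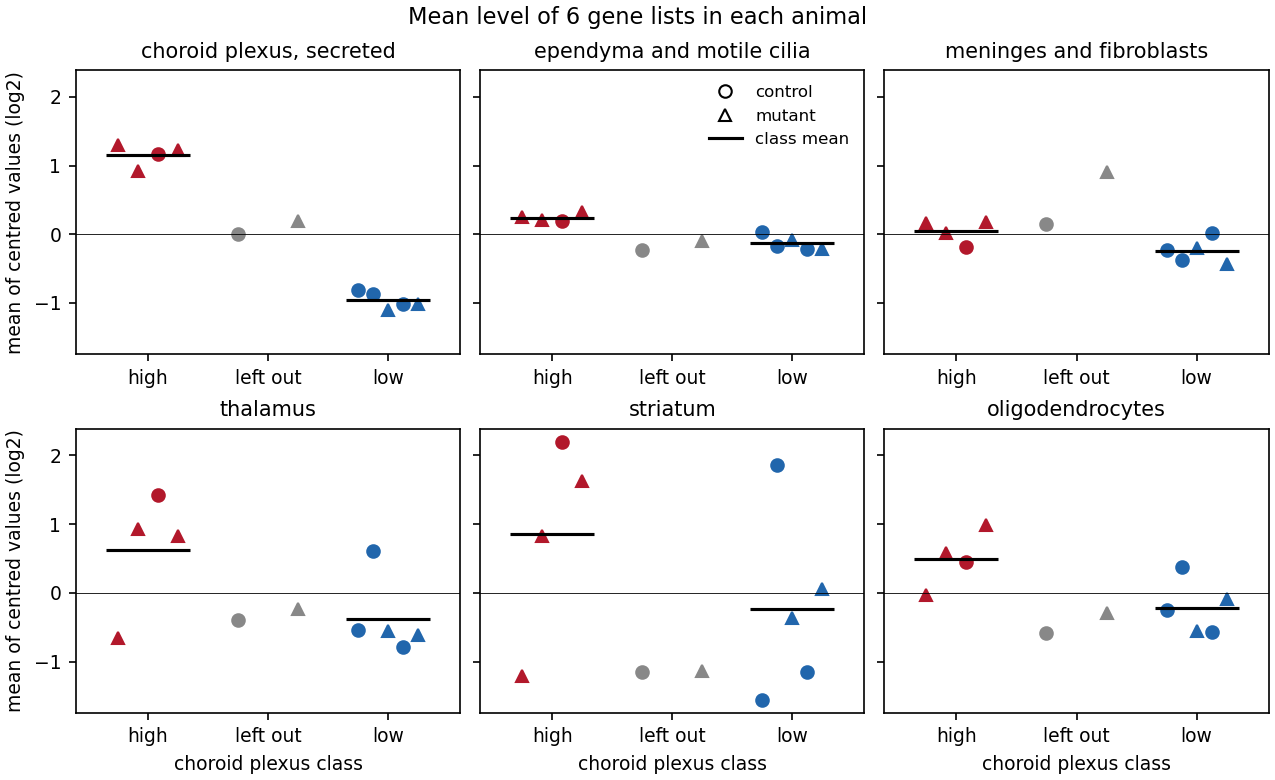
Mean of the centred log2 values of 6 gene lists in each animal (vertical axis), by choroid plexus class; circles are controls, triangles mutants and bars the class means. The secreted choroid plexus proteins separate the classes (0.92 to 1.30 against -1.10 to -0.81), ciliary genes do so with a narrow gap, mutant 3 is highest in meningeal genes (0.90), and thalamus, striatum and oligodendrocyte genes overlap through mutant 1 and control 3.

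Pathways that the plexus feeds were followed in genes outside the choroid plexus lists. The RNA was the same, so that signal from plexus and from hippocampus cannot be told apart in these genes. Of 12 further genes of the insulin-like growth factor system, 0 separated the classes, and the median was 0.12. Igfbp6 read 7.40, 6.32, 5.88 and 6.45 against 6.81, 7.27, 8.27, 8.31 and 8.5, a difference of -1.32 with overlap through mutant 1. Igfbp7 differed by 0.53 and the receptor Igf1r by 0.44. Of 11 genes of retinoid and thyroid hormone handling, 1 separated the classes, the thyroid hormone transporter Slco1c1, at 9.34 to 9.79 against 8.65 to 9.19 (0.67). Crym, a thyroid hormone binding protein, overlapped (-1.08).

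The choice of animals used neither genotype nor number series. The high class held 3 mutants and 1 control and the low class 2 mutants and 3 controls (Fisher's exact test, two-sided, p = 0.524). By number series, the high class held 3 animals of the 200s and 1 of the 300s and the low class 2 and 3 (p = 0.524, Fisher's exact test). Over all 11 animals, mutants minus controls came to 0.36 for Ttr, 0.64 for Kl and 1.10 for Folr1, and exact two-sided permutation tests over the 462 splits gave p = 0.779, 0.511 and 0.286, or 0.779, 0.766 and 0.766 after Benjamini-Hochberg adjustment over the 3 genes. The smallest p this design allows is 0.00433. The Ttr difference was 1.36 within the 200s and 1.37 within the 300s, where control 5, at 9.77, was the single control, and the sign of the pooled difference rested on single animals. It was -0.31 without control 5 and -0.019, -0.030 and -0.025 without mutants 1, 2 and 4 in turn. Kl differed by 1.20 and 0.62 within the series and Folr1 by 1.62 and 1.46. The difference of genotype effects between the series had adjusted p-values of 1.00 for each of the 3 genes by limma.

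Across the 100 measured genes of the choroid plexus and ependyma lists, 5 had an unadjusted limma p under 0.05 between the genotypes, against 864 of all 19031 genes (4.54%), of which 486 (2.55%) were higher in mutants. The count of 5 ran from 1 without control 5 to 15 without control 4, and was 2 without control 2 or mutant 6, 3 without control 3, mutant 2 or mutant 4, and 30 with the replicate number as a block, so that it has no firm place against that background. None had an unadjusted p under 0.001, against 38 of 45135 probes (0.0842%). A single probe (0.00222%) had an adjusted p under 0.05 by limma, that of Arsi, an arylsulfatase gene outside the lists, at 6.42 to 7.86 in mutants and 4.25 to 5.02 in controls (adjusted p = 0.0154). No probe passed when any 1 animal other than mutant 3 or mutant 4 was left out, with number series as a block, with the deposited values or without background correction. Of the 55 choroid plexus genes 47 were higher on average in mutants, with a median of 0.40, against 9867 of all 19031 genes with a median of 0.0055. Most of these 55 genes rose and fell together across the animals, and the high class held 3 mutants and 1 control. The count is therefore not one of independent genes, and nothing is read from it. Slc15a2, a peptide transporter, had the smallest p, at 8.53 in mutants and 9.07 in controls (-0.54 ± 0.15, standard error, limma adjusted p = 0.996). Cfap45 and Zmynd10, both ciliary, differed by 0.50 ± 0.18 and 0.30 ± 0.14, with the same adjusted p of 0.996 by limma. The spread of choroid plexus signal within each genotype was wider than the mean difference between them: Ttr reached from 9.30 to 14.75 in mutants and from 9.77 to 14.57 in controls.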

How the data were processed

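Hippocampal RNA of 6 mutant and 5 control animals was measured on Illumina MouseWG-6 v2 BeadChips, 12 arrays in all. The authors deposited, for each array, an intensity per probe on a linear scale, without scaling between arrays, and a detection p-value beside it. They also deposited processed log2 values, with column medians of 6.60 to 6.64, whose rank order follows the intensities. The methods state background subtraction and quantile normalization, but the deposited log2 values sit at the level of uncorrected signal, and the form of their background step is unknown. The submitters' processing notes name limma without a version.

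Of 46089 lines, 954 without a probe name were taken as control beads and 45135 probes were kept. The platform annotation gives 34773 probes 1 symbol, 18 several and 10344 none, and the last 2 kinds were left unnamed. In R 4.3.3 with limma 3.58.1, a normexp fit that uses the detection p-values removed the background (offset 16), arrays were quantile normalized, and log2 was taken. Mutant 6 entered as the mean of its 2 arrays. The brightest probe by mean over the 11 animals stood for a gene. Class differences are differences of means, with the question whether the classes overlap, and carry no test. Mutants and controls were compared with lmFit and eBayes over all probes with Benjamini-Hochberg adjustment. The precision is limited by the number of animals, and nothing in the labels gives more than 1 sample per animal except mutant 6.

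Genes were named by a rule: Ttr, Kl and Folr1, the 15 largest positive and 10 largest negative differences among genes detected in all animals of the higher class without overlap, the 3 largest differences of each choroid plexus, ependyma and pathway list and 2 of each other list, and the members with the smallest genotype p. Further members are named to describe their lists. The classes, the 22 lists (316 of 343 entries had a probe), the motifs and this rule were chosen with earlier results of these data known. Alternatives were the deposited values, cyclic loess, omission of the background step, a detection filter, each animal left out, each genotype or number series alone, single arrays of mutant 6, the mean over probes and, for genotype, blocks and a covariate.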

Additional observations from a re-analysis of the deposited data

Results flagged for a closer look

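In 100 groups of values looked at (22 list means and 3 genes in the high class, the low class, the mutants and the controls), 6 had 1 animal far from the others, where chance alone gives about 1 in 20. In the low class, control 3 stood apart in the mean of the thalamus list at 0.61, with the others between -0.79 and -0.54, and in the mean of the list of retinoid and thyroid hormone handling at 0.28, with the others between -0.23 and -0.09. Mutant 6 was lowest of the low class in endothelial genes at -0.21, with the others between -0.06 and -0.02. Control 5 was highest of the low class in mural cell genes at 0.074, with the others between -0.14 and -0.08. Among the controls, control 1 was highest in blood genes at 0.36, with the others between -0.31 and -0.13. In the high class, Kl was 9.44 in mutant 2, with the others between 10.23 and 10.33.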

How the results depend on the processing

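Choroid plexus and ependyma differences kept their direction in every setting run, and their size moved with the background correction, the choice of probe and the animals used. With the deposited log2 values and without background correction, 50 and 50 probes were 2-fold higher and 6 and 6 lower, against 118 and 14; Kl came to 2.49 and 2.49, Folr1 to 1.76 and 1.77, and the medians to 1.23 and 1.24 for secreted proteins, 0.74 and 0.75 for transporters, 0.79 and 0.79 for receptors, 0.95 and 0.96 for transcription factors and 0.11 and 0.12 for ependyma. Probes detected in at least 4 animals gave medians of 2.44, 1.39, 2.12 and, for ependyma, 0.60, and 12 probes at p under 0.001 between genotypes against 38. The mean over a gene's probes gave 1.83, 0.64, 1.06, 1.08 and 0.094. At 1.5-fold the counts were 254 and 94.

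Mutants only gave 222 higher and 68 lower, with Ttr at 5.38, receptors at 1.92 and ependyma at 0.33; controls only gave 498 and 184, and there the median of the insulin-like growth factor system turned to -0.14. The 200s gave 27 lower, Ttr 2.77, receptors 1.37 and transcription factors 1.85, and the 300s 713 and 383, transporters 1.30, transcription factors 1.27 and ependyma 0.34. Leaving out 1 animal gave 119 to 209 higher probes and 12 to 45 lower, both most without mutant 1; lower probes also rose to 24 without control 3 and 25 without mutant 6. Ttr ranged from 3.94 to 4.67, Kl from 2.93 to 3.34, Folr1 from 3.36 to 3.60, and the medians from 2.21 to 2.40, 1.18 to 1.24, 1.62 to 1.92, 1.39 to 1.69 and 0.14 to 0.27 for ependyma.

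Between genotypes, leaving out 1 animal gave Ttr -0.31 to 1.06, Kl 0.19 to 1.21 and Folr1 0.71 to 1.69, with 31 to 51 probes at p under 0.001 and 0 to 1 at an adjusted p under 0.05. That last count, 1, was 0 with the deposited values, without background correction and with number series as a block. Members of the choroid plexus and ependyma lists at p under 0.05 numbered 5, with 3 under cyclic loess, 2 in the 9 animals of the classes and 1 (without control 5) to 15 (without control 4) with 1 animal left out, settings added after seeing the data. Replicate numbers are shared between groups, but same-numbered animals correlated at -0.05 to 0.56, so the numbers were not taken as pairs; with the replicate block 30 members were at p under 0.05. The causes were not tested.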
